A study of Drosophila melanogaster with 6 samples.

Results

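The regions described here are small H3K27me3 peaks that have another peak close by in wing imaginal discs of Drosophila melanogaster. From the authors' list of broad peaks, every peak under 3000 bp was taken that had at least 1 other peak of the same chromosome within 5000 bp, edge to edge. This gave 937 of the 1709 peaks in the list, and these are called neighboured small peaks below. The other 334 peaks under 3000 bp had no such neighbour and are called isolated, 213 peaks were mid-size (3 to 10 kb), and 225 were broad (10 kb or more). The members were thus chosen by measured peak width and by distance to the next peak, and fold enrichment comes from the same peak calling, so all values of the peaks themselves are descriptions and none was tested.

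Trimethylation of histone H3 at lysine 27 is written by Polycomb repressive complex 2 and bound by Polycomb repressive complex 1, and it marks genes held silent through development. In flies it typically spreads over wide blocks around regulators such as the Hox genes, nucleated at DNA elements called Polycomb response elements. Wing discs are the larval epithelia that form the adult wing and part of the thorax, and many regulators of other body parts are silent in them.

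The study profiled the mark by CUT&RUN, in which an antibody brings a nuclease to the marked chromatin and the released fragments are sequenced. Discs of 1 genotype expressed the oncohistone H3K27M from UASt-H3 K27M, and those of the other expressed the control H3K27R from UASt-H3 K27R. Both carried the broadly active driver Act5C-GAL4 and the temperature-sensitive repressor alphaTub84B-GAL80ts. Expression lasted 72 h, after larvae reared at 25 °C were shifted, 44 h after egg laying, to 32 °C. Each genotype had 2 H3K27me3 libraries and 1 IgG library, a replicate holding 20 discs of late larvae aged 116 to 119 h. The single peak list belongs to both H3K27R H3K27me3 libraries, so it gives no value per replicate and no spread, and read depth is unknown. The genotype comparison enters only through the authors' deposited table of genes upregulated with H3K27M. Neither file holds expression values, so the labelled tissue could not be checked against its markers. Coordinates are dm6, counted from 1.

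Most neighboured small peaks lay among other small peaks and not at the edge of a broad one. An adjacent peak within 5 kb was broad for 104 of them (11.1%), and for 102 of these on 1 side only. Broad peaks that lay beyond a nearer peak were not counted here, even where they were within 5 kb. For 158 others (16.9%) the wider of the adjacent peaks within 5 kb was mid-size, and for 675 (72.0%) it was itself under 3 kb. Of the 225 broad peaks, 92 (40.9%) had a neighboured small peak as an adjacent peak within 5 kb, 14 of them on both sides. Among the 213 mid-size peaks the number was 143 (67.1%).

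Chaining peaks over gaps of up to 5 kb into domains tied more of them to broad peaks, although domains of small peaks alone still held the largest group. The 937 peaks fell into 307 domains. Of these, 80 held a broad peak and 276 neighboured small peaks (29.5%), 72 had a mid-size peak as their widest and held 208 (22.2%), and 155 consisted of small peaks alone and held 453 (48.3%). The number tied to a broad peak depended on the distance allowed, which also changes which small peaks count as neighboured. It was 159 of 705 (22.6%) at 2 kb and 420 of 1057 (39.7%) at 10 kb. Within the domains with a broad peak, 252 neighboured small peaks lay outside the outermost broad peak and 24 lay between broad peaks. The 661 in domains without a broad peak were mostly far from one, at a median distance of 255.7 kb, and 57 of them (8.62%) lay within 20 kb. The isolated small peaks had a median distance of 280.6 kb, with 34 of 334 (10.2%) within 20 kb.

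**Figure D1:**
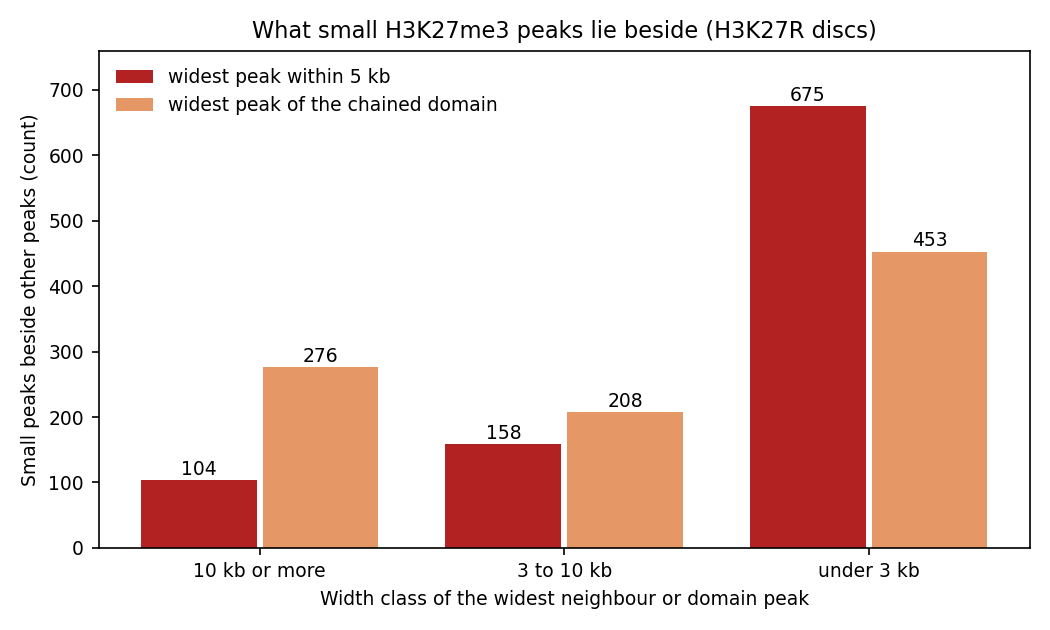
Number of neighboured small peaks (y axis, of 937) by the width class of the widest peak within 5 kb (dark bars) and by that of the widest peak in the chained domain (light bars). The class of small peaks is the tallest by either count, with 675 and 453 peaks, against 104 and 276 for peaks of 10 kb or more.

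Runs made of small peaks alone were mostly short. Of the 155 runs, 86 (55.5%) were pairs, 34 had 3 peaks, 18 had 4 and 17 had 5 or more. Those 17 held 107 peaks. The runs had a median span of 5.45 kb, with a median of 42.8% of the span under peaks, and the longest reached 30.8 kb. Domains with a broad peak that also held neighboured small peaks had a median span of 52.1 kb, of which 87.1% was under peaks. Those with a mid-size peak as the widest spanned a median of 13.4 kb, with 64.3% under peaks.

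Gaps to the nearest peak were mainly short. They measured under 1 kb for 392 neighboured small peaks (41.8%) and under 2 kb for 705 (75.2%), with a median of 1135 bp. Mid-size and broad peaks, which were not chosen by gap, had similar medians of 1225 bp and 1385 bp. No gap in the whole list was shorter than 712 bp. Peaks stood on both sides of 443 neighboured small peaks and on 1 side of 494.

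The neighboured small peaks were narrow and weak, close to the isolated ones in fold enrichment and well under the broad peaks. Their median width was 807 bp, against 418.5 bp for isolated small peaks, and together they covered 9.61% of all bases under peaks. The median fold enrichment, which is the authors' value over the peak caller's background, was 2.30, with quartiles of 2.11 and 2.53. It was 2.20 for isolated small peaks, 2.89 for mid-size peaks and 7.41 for broad peaks. A −log10 q-value of at least 10 was given to 24 of the 937 (2.56%), against 13 of 334 isolated small peaks (3.89%), 47 of 213 mid-size peaks (22.1%) and 200 of 225 broad peaks (88.9%).

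**Figure D2:**
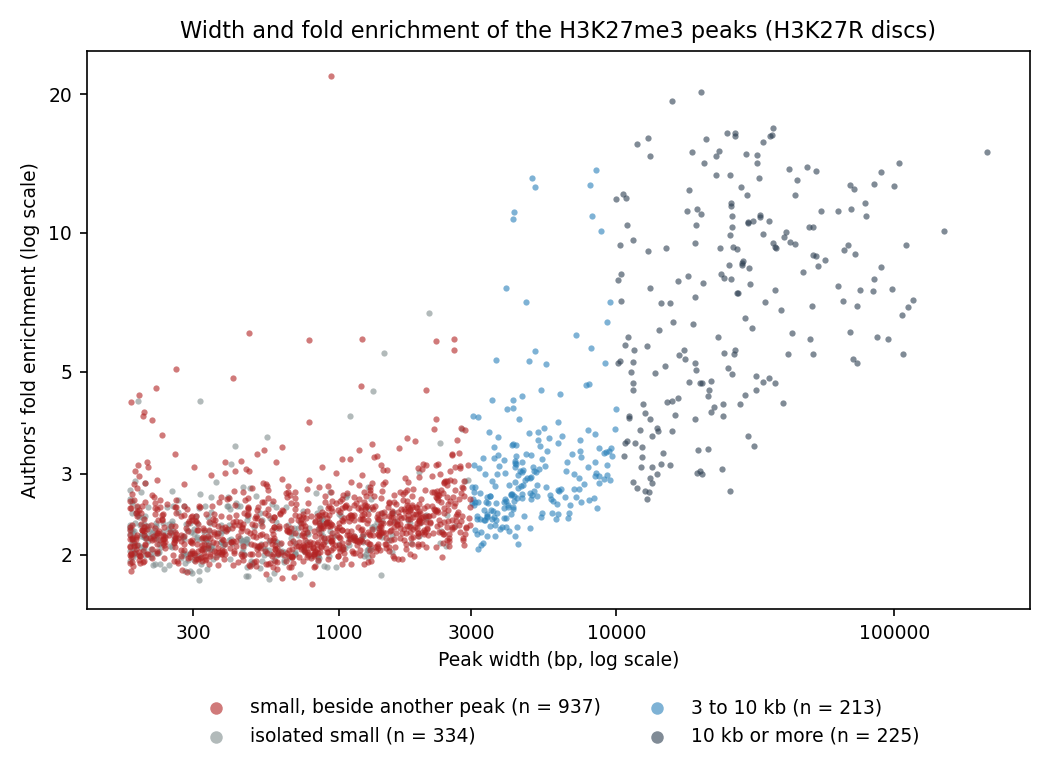
Width in bp (x axis, log scale) and the authors' fold enrichment (y axis, log scale) of all 1709 peaks, 1 point per peak, coloured by class. Neighboured small peaks have quartiles of 2.11-fold and 2.53-fold, and a single one reaches 21.9-fold, whereas the broad peaks have a median of 7.41-fold.

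Next to a broad peak, small peaks were somewhat higher than farther along the chain. The 104 directly beside a broad peak had a median fold enrichment of 2.41, and 18 of them (17.3%) reached at least 3-fold. At the next position along the chain the median was 2.33, with 1 of 66 at 3-fold or more, and at the third position or beyond it was 2.31, with 1 of 106. Where the wider adjacent peak was small, the median was 2.29, and 39 of 675 (5.78%) reached 3-fold. In the 106 pairs of a small peak with the broad peak beside it, the small peak was the lower in 103. The median fold enrichment was 2.41 for the small and 5.73 for the broad partner, with a median ratio of broad to small of 2.33 and a median gap of 1274 bp.

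The 3 pairs in which the small peak was the higher lay beside Optix, ths and klu. The peak beside Optix, a homeobox gene of the eye and wing, was 939 bp wide and 21.9-fold, over the microRNA gene mir-4981. The broad peak over Optix, 1974 bp away, stood at 13.7-fold. Within ths, an FGF ligand gene, a small peak of 1209 bp stood at 4.66-fold, 1005 bp from a broad peak of 3.26-fold over the same gene. At klu, a zinc finger gene, the values were 3.12-fold for the small and 2.88-fold for the broad peak. The largest ratios were at the other extreme. Near gsb and gsb-n, the gooseberry segment polarity genes, a small peak over gol had 2.04-fold against 16.9-fold in the broad peak, and next to retn, an ARID-domain factor, a small peak had 2.12-fold against 15.8-fold.

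Only a few neighboured small peaks were strong. Fold enrichment was at least 3 in 68 (7.26%) and at least 5 in 8. Of the 10 highest, the peak over mir-4981 was followed by a 475 bp peak on 2L with no annotated gene (20151090 to 20151564, 6.08-fold). Next was a 2611 bp peak at the far side of the Kr domain (2R 25255287 to 25257897, 5.89-fold). It lay mostly beyond CG9380, which ends at 25255318. After it came a 1216 bp peak (2R 7439188 to 7440403, 5.89-fold). This peak lay 302 bp from CG11123 and 4315 bp from so, a retinal determination gene. Then came 4 peaks on 2R between Pld and jing at 5.85-fold, 5.83-fold, 5.07-fold and 4.85-fold, a 2609 bp peak on 2L near CG13970 at 5.56-fold, and the peak in ths. The weakest 5 ran from 1.73-fold to 1.84-fold. Of these, 1 lay in chinmo, a BTB zinc finger gene of temporal cell identity (1.73-fold), 1 in dpr12, an immunoglobulin family gene (1.78-fold), and 1 in CG46467 (1.82-fold), while the other two overlapped no gene.

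Among runs of small peaks alone, the 10 with the most peaks are described, with ties settled by the bases under peaks. The longest was a run of 11 peaks on 2L (1451118 to 1481887) that overlapped no annotated gene. It lay 7285 bp from CG43402 and 10407 bp from CG31928, with folds from 2.07 to 2.76. The next, with 10 peaks over 26.3 kb on 2L (15470687 to 15497004), surrounded sna, which encodes a zinc finger repressor of mesoderm and imaginal fate. A single one of its peaks, of 700 bp and 2.51-fold, lay on sna itself, and the run ranged from 1.92-fold to 2.56-fold. All 8 peaks of a run on 3R (9907113 to 9931108) lay within the overlapping genes Glut4EF and CG46467, at 1.82-fold to 2.50-fold.

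Runs of 7 peaks lay in hth, in bt and at CG42747. The run in hth, the homothorax gene of the proximal wing and hinge, spanned 16.9 kb (3R 10530328 to 10547188) at 1.96-fold to 2.78-fold, and all 7 peaks were inside the gene. A gap of 5255 bp, just over the limit, parted it from another run of small peaks in hth that ended at 10525072. The run in bt, which encodes the muscle protein projectin, spanned 13.7 kb of chromosome 4 (754658 to 768406) at 1.97-fold to 2.43-fold. At CG42747 on 3L (6379871 to 6403068), a single peak of the 7 lay on the gene, and the folds were higher, at 1.95 to 3.14.

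The shorter named runs held 6 or 5 peaks. On the X (8446780 to 8459632), a run of 6 peaks at 2.17-fold to 3.54-fold had 3 on org-1, a T-box gene, 1 on CG32713, 1 on CG15347 and 1 on no gene. The 6 peaks at CG43168 on 3L, 1 of them on the gene, spanned 9.61 kb at 1.92-fold to 3.14-fold. All 5 peaks of another run (3L 16472094 to 16493873) lay within CG33158, at 1.99-fold to 3.77-fold, and the first 3 also lay over aos, the gene of the secreted EGFR inhibitor argos. In Rbp6, an RNA-binding protein gene, 5 peaks covered 61.1% of a 12.1 kb stretch at 2.08-fold to 2.50-fold. Among these 10 runs no peak exceeded 3.77-fold.

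**Figure D3:**
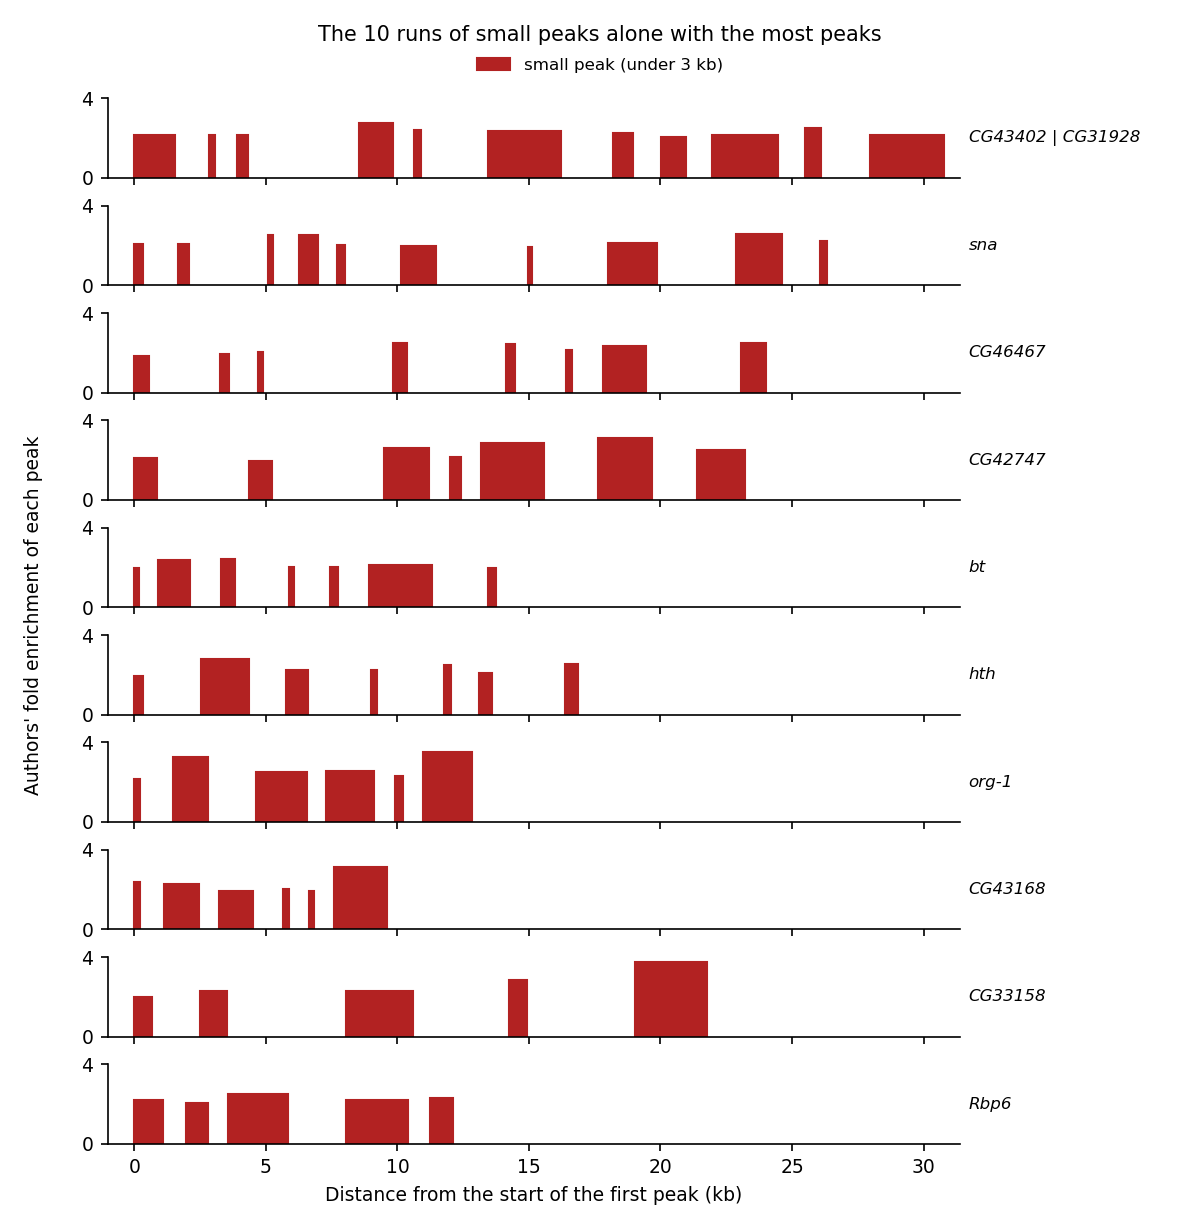
Peaks of the 10 runs of small peaks with the most peaks, drawn to scale by distance from the first peak in kb (x axis), with bar height giving the authors' fold enrichment (y axis, 0 to 4). Each row is 1 run, named at the right by the gene under its peaks, or by the genes on either side for the run with none. The bars stay between 1.82-fold and 3.77-fold and are separated by gaps of up to 5 kb.

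In the 10 domains with a broad peak and the most neighboured small peaks, these mostly lay as tails, in most cases longer on 1 side. The domain over tsh, the teashirt gene of trunk and proximal appendages, held 17 neighboured small peaks. Of these, 16 followed the last broad peak over 46.2 kb, and 1 preceded the first. The small peaks ran from 1.91-fold to 2.92-fold and the 4 broad peaks from 4.25-fold to 5.47-fold. The domain over zfh1, a zinc finger homeodomain gene of mesoderm and muscle precursors, held 7 small peaks, all on the same side, over 17.1 kb. Their median was 2.30-fold, against 11.2-fold in the broad peak. At Kr, the Krüppel gap gene, 6 small peaks lay before the broad peak (11.1-fold) and 1 lay after it. The stretch before the broad peak, of 31.2 kb, includes Ebp and EbpII, genes of ejaculatory bulb proteins. It also held a mid-size peak over Ebp.

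Tails also accompanied broad peaks of lower fold. At the spalt genes salr and salm, which pattern the wing veins, 7 small peaks preceded the first broad peak and 1 followed the last. The stretch of 48.0 kb before the first broad peak began with a mid-size peak and held 3 mid-size peaks among the small ones. The small peaks had folds of 1.91 to 2.73, against 3.07 to 5.33 in the 3 broad peaks. At cpo, the RNA-binding protein gene couch potato, 1 small peak preceded and 7 followed a broad peak of 3.62-fold, all inside the gene. At fj, the four-jointed kinase gene of planar polarity, 6 preceded and 1 followed a broad peak of 4.56-fold, with folds of 2.24 to 2.57. The fj domain also held 3 mid-size peaks. A broad peak of 3.74-fold lay over the ionotropic receptor genes Ir94f and Ir94g. It was preceded by 12 small peaks, all on CG4374, and followed by 2, of which 1 lay on Ir94h. A mid-size peak also followed it.

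Small peaks between broad peaks were rarer, with 24 in all. The domain over the FGF ligand genes pyr and ths held 6 of them, 1 on pyr at 1.90-fold, together with 1 before and 2 after the broad peaks. The domain over the aldehyde oxidase genes AOX1, AOX2, AOX3 and AOX4 held 2 between broad peaks, 7 before and 1 after. At ct, the cut homeobox gene of the wing margin and sense organs, 3 preceded, 2 lay between and 1 followed the broad peaks. Mid-size peaks also stood in these domains, 4 at pyr and ths, 3 at the AOX genes and 2 at ct.

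**Figure D4:**
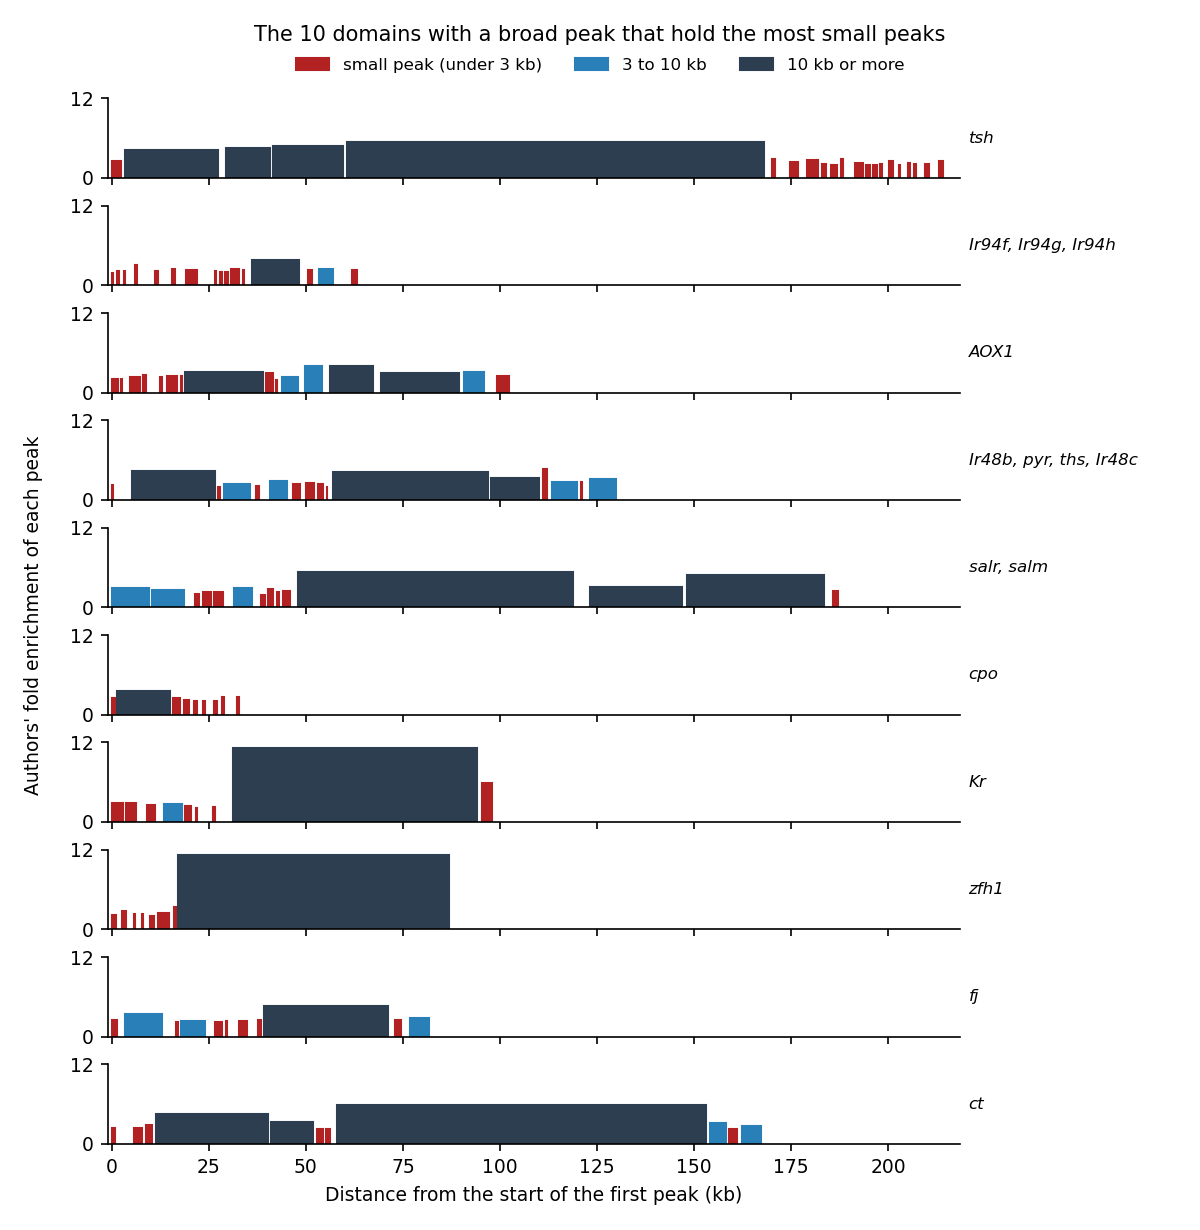
Peaks of the 10 domains with a broad peak that hold the most neighboured small peaks, drawn to scale by distance from the first peak in kb (x axis), with bar height giving the authors' fold enrichment (y axis, 0 to 12). Colours mark peaks under 3 kb, of 3 to 10 kb and of 10 kb or more, and rows are named by genes under the peaks. In the tsh row, 16 small peaks follow the last broad peak, and in the zfh1 row all 7 precede it.

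Neighboured small peaks lay outside protein-coding genes more often than isolated ones. At least 1 bp of a protein-coding gene lay under 528 of the 937 (56.4%), against 238 of 334 isolated small peaks (71.3%), 139 of 213 mid-size peaks (65.3%) and 199 of 225 broad peaks (88.4%). Over all peaks the share was 64.6%. By bases, 52.6% of the sequence under neighboured small peaks was in protein-coding gene spans, against 62.4% under isolated small peaks and 67.3% of the chromosome arms. In domains with a broad peak the share by bases was 42.8%, and in runs of small peaks alone it was 55.6%. Another 52 neighboured small peaks overlapped a gene of another kind only, and 357 overlapped no annotated gene. The 409 without a protein-coding gene lay a median of 5647 bp from the nearest, and 189 of them within 5 kb.

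Where a neighboured small peak lay on a gene, its neighbour was usually on the same gene. This held for 398 of the 528 (75.4%) with the nearest peak. The rule required a neighbour within 5 kb, which favours a shared gene, and no comparison share was computed. In 66 of the 155 runs of small peaks alone (42.6%), every peak lay over 1 shared gene. Genes under neighboured small peaks in general, shared or not, were long. The 302 protein-coding genes under neighboured small peaks (2.17% of all protein-coding genes) had a median length of 7701 bp, against 2163 bp for all protein-coding genes, 12777 bp for genes under isolated small peaks and 3011 bp for those under broad peaks. Longer genes meet any interval more often. Of the 302, 195 (64.6%) were under no other class of peak, and 41 also met a broad peak. The median share of a gene's span under neighboured small peaks was 13.7%, and 10 genes were covered in full, among them ac, Ccp84Ab and Obp99b.

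The genes with the most neighboured small peaks were long ones. CG4374, bt and hth had 16 each, in spans of 63.6 kb, 52.1 kb and 132.0 kb. All peaks on bt were of this kind and covered 25.1% of it, at 1.91-fold to 2.52-fold. sick and mamo had 9 each, and twi, cpo, Glut4EF and CG46467 had 8 each. The neuronal adhesion genes CadN and Dscam1 had 6 and 5. On sog, which encodes an antagonist of BMP signalling, 4 neighboured small peaks were the only ones and covered 16.6% of the gene at 2.10-fold to 2.55-fold. Genes that overlap each other, such as Glut4EF and CG46467, share their peaks.

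Most genes of the lists of developmental regulators lay under some peak, and a smaller number lay under neighboured small ones. Of all protein-coding genes, 2.17% overlapped a neighboured small peak and 7.22% any peak. Of 33 wing patterning genes, 5 (15.2%) overlapped a neighboured small peak and 31 (93.9%) any peak. These 5 were ap, the dorsal selector, caup of the Iroquois complex, hth, inv, a paralogue of engrailed, and rn, the rotund gene of the distal wing. All 5 also had other peaks. On rn, small peaks of 2476, 291 and 258 bp had 2.37-fold, 2.01-fold and 3.31-fold, and the highest peak on the gene had 8.51-fold. Of 8 Hox genes, all under some peak, Antp and pb (25.0%) overlapped a neighboured small peak, at 2.25-fold to 2.46-fold on Antp and 2.54-fold on pb. None of 20 eye and antenna genes did, although all 20 overlapped some peak.

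Other regulator lists gave a handful of genes each. Of 25 neural fate genes, 4 (16.0%) overlapped a neighboured small peak and 17 (68.0%) any peak. No other class of peak lay on 3 of the 4. They were the proneural gene ac (2.90-fold, covered in full), the epidermal and neuroblast factor grh (2.24-fold and 3.65-fold) and sna. On grh the peaks measured 247 and 231 bp and covered 1.15% of the gene, and on sna the share was 42.0%. The fourth, pdm2, had 2.67-fold beside other peaks that reached 6.91-fold. Of 19 mesoderm and muscle genes, ap, sna and twi were counted (15.8%), and 16 (84.2%) overlapped any peak. On twi, the mesoderm determinant, 8 neighboured small peaks ran from 2.14-fold to 3.40-fold. Of 23 segmentation genes only run was counted (4.35%), with a peak of 1423 bp at 3.14-fold, and 18 (78.3%) overlapped any peak. The 4 of 23 secreted ligand genes (17.4%) were pyr, ths, Wnt2 and Ser, and 15 of the 23 (65.2%) overlapped any peak. The Notch ligand gene Ser carried 4, at 1.99-fold, 2.01-fold, 2.74-fold and 2.86-fold, beside another peak on the gene at 4.14-fold, and Wnt2 carried 2, at 2.25-fold and 2.53-fold. Of 7 markers of adult muscle precursors, which accompany the disc epithelium, ct, sty and twi were counted, and 5 overlapped any peak. None of 5 tracheal and none of 9 haemocyte markers was counted, although 4 and 3 of them overlapped any peak. With lists this short, these counts show no difference between cell types.

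A few receptor and cuticle genes of tandem arrays were overlapped, some of them neighbours in their array. Of 258 chemosensory genes, 9 overlapped a neighboured small peak (3.49%) and 23 any peak (8.91%). These shares are near those of all protein-coding genes, 2.17% and 7.22%. None of the 9 met another class of peak. They were Gr63a, a carbon dioxide receptor gene (2.44-fold), the ionotropic receptor genes Ir60a, Ir94d, Ir94e and Ir94h, the odorant receptor genes Or42b, Or65b and Or65c, and the odorant-binding protein gene Obp99b (1.98-fold). The peaks on Ir94d and Ir94e lay 893 bp apart and those on Or65b and Or65c 2140 bp apart. Ir60a shares its peak with nord, in whose span it lies. Of 120 cuticle genes, Ccp84Ab (2.41-fold) and Ccp84Ac (3.06-fold) were counted (1.67%, under the share of all protein-coding genes). Both lie in the Antennapedia complex, within the domain that holds lab and pb. Of 22 testis and germline genes only vas was counted (2.56-fold), and of 15 housekeeping genes none. Any peak was overlapped by 8 (36.4%) and 2 (13.3%) of these lists.

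**Figure D5:**
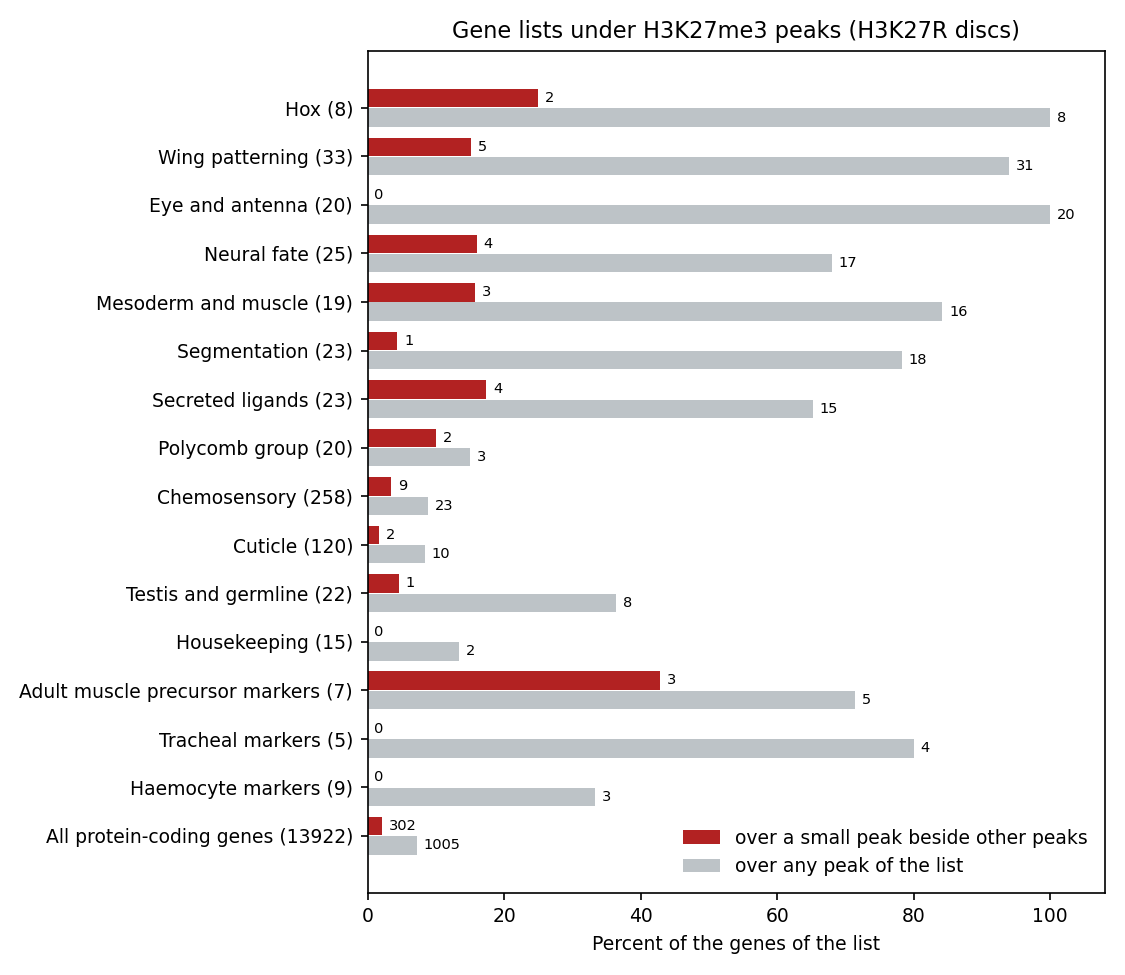
Percent of the genes of each list (x axis) that overlap a neighboured small peak (upper bars) or any peak (lower bars), with the number of genes at each bar and the size of the list in brackets. All 20 eye and antenna genes overlap some peak and 0 a neighboured small one, and over all protein-coding genes the bars are at 2.17% and 7.22%.

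Of 20 Polycomb group genes, Psc and ph-p, both of Polycomb repressive complex 1, overlapped a neighboured small peak. On Psc the peak was 1389 bp wide at 2.22-fold, 821 bp from a broad peak of 4.24-fold on the same gene. All classes of peak together covered 72.4% of Psc, and the neighboured small peak covered 9.26%. On ph-p it was 183 bp wide at 2.09-fold, and the gene had no other class of peak. A close copy, ph-d, lies beside ph-p, and how reads common to both were placed is unknown.

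The authors' deposited table of genes upregulated with H3K27M names 131 protein-coding genes, or 0.941% of all, and 8 of them overlapped a neighboured small peak. That is 2.65% of the 302 genes under such peaks. Of the 703 genes under other classes of peak only, the authors' deposited table names 7 (0.996%). With 8 and 7 genes these shares are imprecise, they were not tested, and gene length differed between the classes as given above. For 6 of the 8, no other class of peak lay on the gene.

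In the authors' deposited table the 8 genes were Psc, rhi, mwh, CG14082, Hsc70-2, yellow-e, Kots and cona, with 12 neighboured small peaks between them, none above 2.54-fold. On rhi, which encodes the HP1-family protein of piRNA clusters, peaks of 1753 bp at 2.23-fold and 1282 bp at 2.22-fold covered 48.0% of the gene (2R 17628491 to 17633516), and the second held its start site. On yellow-e, of the yellow family of pigmentation-related genes, peaks of 1785 bp at 2.54-fold and 773 bp at 1.98-fold covered 44.5%. No start site of the other 7 genes lay in such a peak. These pairs of peaks on rhi and yellow-e each belonged to runs of small peaks alone, as did those on CG14082 (2.19-fold and 2.21-fold) and Hsc70-2 (2.43-fold).

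The remaining listed genes lay beside larger peaks. On mwh, the wing hair polarity gene, peaks of 1203 bp at 2.50-fold and 603 bp at 1.93-fold stood in a domain with a mid-size peak. On Kots (1228 bp, 2.22-fold) and on cona, a synaptonemal complex gene (250 bp, 2.31-fold), a broad peak lay within 5 kb of the small one. On Psc, the broad peak beside the small one lay on the gene itself, at 4.24-fold.

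Neighboured small peaks occurred on every arm that carried peaks. Arm 2L held 229, arm 3L 208, arm 3R 201, arm 2R 164, the X 109 and chromosome 4 held 26. They made up between 49.8% of the peaks on X and 65.0% of those on chromosome 4. Per Mb, chromosome 4 had 20.4 and 2L had 9.78, whereas X had 4.63. The share in runs of small peaks alone was between 44.2% on 3L and 52.7% on 3R, and the median fold enrichment was between 2.25 and 2.32 on all 6 arms.

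The limits of 3000 bp and 5000 bp fell within continuous ranges. The 5 widest members measured 2917 to 2973 bp at 2.33-fold to 3.13-fold, and the 5 narrowest peaks beyond the limit measured 3019 to 3062 bp at 2.56-fold to 4.00-fold. The widest gaps of members were 4998 bp in hth and 4999 bp for a pair in CG44837. Just beyond the limit, gaps of 5033 bp in sick and 5055 bp for a pair on 2R left their peaks isolated.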

How the data were processed

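The members and gene lists were chosen with earlier results of these data known. CUT&RUN libraries of H3K27M and H3K27R discs gave 2 files. Per the submitters' processing notes, Bowtie2 and MACS2 were used with dm6. Not given in the sources used here are versions, thresholds, pooling and the role of IgG. Per the file layout, the deposited peak list holds the authors' fold ratio over background and −log10 q-value (lowest 1.05; its −log10 p-value was not used). The authors' score column restated the q-value and was dropped.

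Peaks were classified by width and gap, and chained over gaps of up to 5000 bp. Genes (17684 on 6 arms, 13922 protein-coding) came from the RefSeq table of Release 6, which gives no strand, so start sites were placed only for the authors' upregulated genes, whose strands are deposited, and overlap was at least 1 bp. All 148 deposited intervals equalled a gene span. Arm lengths end at the last gene. All 591 list entries matched. Chemosensory and cuticle genes were taken by symbol prefix. No test was run, since neither file has replicates. Classification was checked on simulated peaks. Named items are the 10 runs with the most peaks and the 10 broad-peak domains with the most members (ties by covered bases), the strongest, weakest and threshold members, and all listed and upregulated genes under members; other genes were chosen after their values were seen. Python 3.11.15 and pandas 2.3.3 were used.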

Additional observations from a re-analysis of the deposited data

How the results depend on the processing

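No paired analysis was possible because the peak list is shared by both libraries; leaving out a replicate was likewise not possible. Of 36 alternatives, 22 stayed within 1.5 times the count or within the 95% binomial interval of the median (2.27 to 2.32). That interval treats the peaks of the list as independent and measures no spread between replicates. With small peaks under 1 kb, 551 were neighboured, 60 beside and 139 in a domain with a broad peak, 312 over a protein-coding gene, with 5 upregulated genes and a median fold of 2.21. Under 2 kb the median was 2.26. With peaks of −log10 q of at least 2, it was 2.41, and 351 overlapped a gene. With broad peaks of 20 kb or more 62 lay beside one, and with 5 kb or more 165. Domains with a broad peak held 159 with neighbours within 2 kb and 420 within 10 kb. With at least 10% of the gene covered, 5 upregulated genes remained. The counts fall or rise by construction, since each setting changes which peaks or overlaps qualify. With 1 list and unknown depth, weak peaks could not be checked against replicates.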

Other observations

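A stretch of 246.7 kb on 2R between Pld and jing (6255267 to 6502005), chosen after its values were seen, held 16 peaks, all under 3 kb, of which 12 were neighboured small peaks. They formed 5 runs. The annotation used here has 1 gene in the stretch, which does not encode a protein. Their fold enrichment ran from 2.43 to 5.85 with a median of 3.61, and 9 of the 12 were at 3-fold or more. In the whole list 24 neighboured small peaks reached a −log10 q-value of 10, and 6 of them lay here, among 13 that belonged to runs of small peaks alone. The highest 2 measured 786 bp (6416549 to 6417334, 5.85-fold) and 2243 bp (6339759 to 6342001, 5.83-fold). jing encodes a zinc finger protein related to the vertebrate Polycomb cofactor AEBP2.

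Some neighboured small peaks of 3-fold or more lay on genes outside the lists. In dsx, the doublesex gene of sexual differentiation, a peak of 2661 bp stood at 3.56-fold beside a broad peak. In pdm3, a POU-domain gene, a peak of 2246 bp stood at 3.94-fold in a run of small peaks. In Timp, an inhibitor of matrix metalloproteinases that lies within the synapsin gene Syn, a peak of 198 bp stood at 4.00-fold. The second microRNA gene under such a peak, mir-4941, was covered in full at 3.08-fold. It lies within Notum, which encodes a secreted inhibitor of Wnt signalling.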
